A study of Zea mays with 4 samples.

Results

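In maize kernels, 86 genes had transcript levels at least 4-fold lower in both zmknl1 libraries than in both wild type (WT) libraries. They were chosen by that difference. Levels are CPM, counts set relative to a library's total after TMM scaling. A gene needed a mean CPM of at least 5 over the 4 libraries, and its lower WT value had to be at least 4 times its higher zmknl1 value. Of 39625 gene IDs, 13185 had that mean CPM and 93 of these (0.705%) met the fold. Leaving out 7 listed IDs among the 93 gave the 86. The same rule turned round, for genes 4-fold higher in zmknl1, found 72 (0.546%). Since the values of both genotypes chose the genes, the differences given for them are a description and are not tested.

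The libraries came from whole kernels of field-grown maize (Zea mays) taken 14 days after pollination. They comprise 2 libraries labelled zmknl1 mutant and 2 labelled wild type, and the replicates came from different ears. The allele, the genetic background and the number of kernels per library are not given in the labels. Knl1, the gene of a scaffold protein of the kinetochore, had no matching name in the reference table, so its own level is not analysed here. Reads counted in genes numbered 19704758 and 22725030 in zmknl1 replicates 1 and 2, and 20640600 and 16595289 in WT replicates 1 and 2. WT replicate 2 stood apart: its 10 most abundant genes took 25.25% of its counts, against 6.743% to 7.77% in the other libraries, and 23.93% of its reads aligned to several places, against 10.86% to 13.49%. The 10 starchy endosperm marker IDs, with pbf1 listed under both GRMZM2G146267 and GRMZM2G146283, summed to 14140 and 19040 CPM in zmknl1 and 27040 and 71830 CPM in WT. All 10 had a mean CPM of 5 or more. Of these, 6 lay lower in both zmknl1 libraries than in both WT libraries, against 20.9% of all genes at that level. FL2 (GRMZM2G397687) was at 843 CPM in WT replicate 1 and 20898 CPM in WT replicate 2. The 3 pericarp markers found had at most a summed 4.30 CPM in any library.

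A kernel at this stage is mostly starchy endosperm, bounded by the aleurone and the basal transfer layer, with an embryo that has begun to store oil and protein. Phosphorus is stored in kernels largely as phytic acid, a highly phosphorylated myo-inositol that is made mainly in the embryo and the aleurone. Its synthesis starts either with myo-inositol phosphate synthase, which makes inositol phosphate from a glucose phosphate, or with the phosphorylation of free myo-inositol by a kinase. In RNA from whole kernels, fewer cells of a type and less RNA per cell cannot be told apart.

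**Figure D1:**
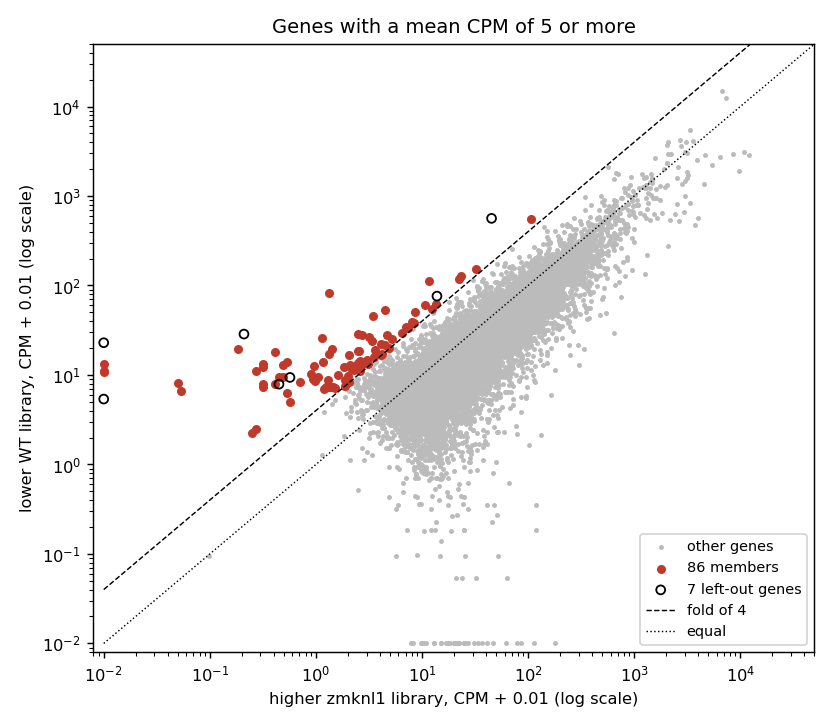
Each point is a gene with a mean CPM of 5 or more; the x axis is the higher of its zmknl1 values and the y axis the lower of its WT values, both in CPM + 0.01 on log scales. The 86 members (red) lie on or above the dashed line of a 4-fold difference, together with the 7 left-out genes (open circles), and 3 members sit at the left edge with 0 counts in both zmknl1 libraries.

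The 86 genes took 0.0410% and 0.0364% of all counts in the zmknl1 libraries and 0.496% and 0.194% in the WT libraries. Their summed level was 354.6 and 331.0 CPM in zmknl1 and 4465 and 2741 CPM in WT. The single members ran from 0 to 106 CPM in zmknl1 replicate 1, with a median of 1.27, and from 0 to 85.9 CPM in zmknl1 replicate 2, with a median of 1.36. In WT replicate 1 they ran from 6.58 to 980 CPM, with a median of 23.3, and in WT replicate 2 from 2.22 to 559 CPM, with a median of 15.5. The lower WT value was 4 to 8 times the higher zmknl1 value in 47 members, at least 8 times in 39 and at least 16 times in 19 of those. Over the members the median edgeR log2 fold change was -3.92, also with the genes at 0 counts in zmknl1 set to their bound, and over all 19519 tested genes it was 0.007.

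**Figure D2:**
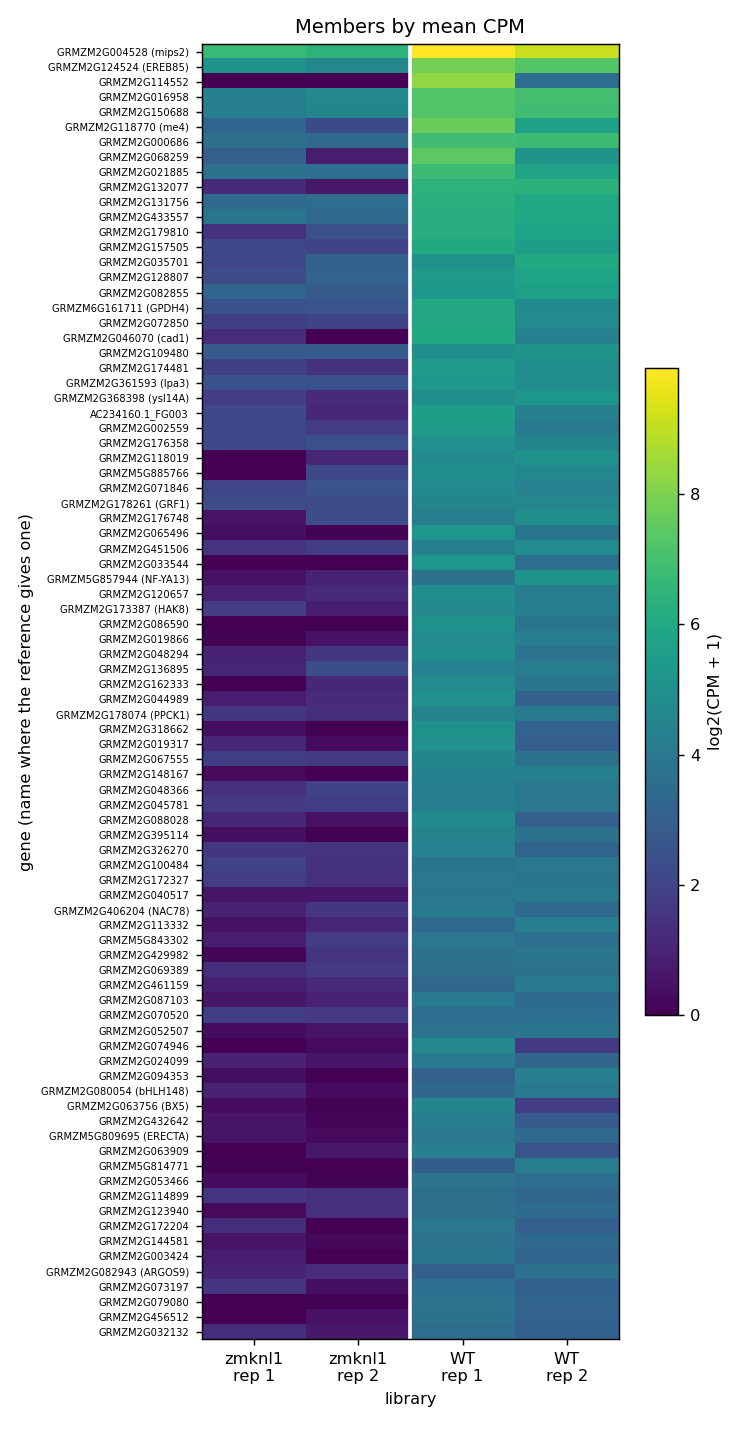
Rows are the 86 members in order of mean CPM and columns the 4 libraries, with colour giving log2(CPM + 1). Every row is darker in both zmknl1 columns than in both WT columns, as the rule requires, and rows such as GRMZM2G114552, GRMZM2G074946 and BX5 also differ between the WT columns.

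The edgeR quasi-likelihood test called 1 of the 86 members at an adjusted p under 0.05, GRMZM2G132077, where 0.00512% of all tested genes were called lower and 0.0205% in either direction. All 86 had an unadjusted p under 0.05 in edgeR, where the share of all tested genes that were lower at that level was 5.30%. DESeq2 called 81 of the 86 lower, where 2.03% of all genes with an adjusted p were called lower. The rule used the same contrast, so nothing is read from these counts. The 5 members that DESeq2 did not call were cad1, GRMZM2G118019, GRMZM5G885766, GRMZM2G162333 and GRMZM2G172204, a group singled out after its values were seen. Each of the 5 had 0 counts in exactly 1 zmknl1 library and counts in the other, as did 9 members that DESeq2 called.

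The reference table held 68 of the 86 IDs and gave 16 of them a gene name. Among these are enzymes of both routes into inositol phosphates. The gene mips2 (GRMZM2G004528), a myo-inositol phosphate synthase, had 106 and 85.9 CPM in the zmknl1 libraries and 980 and 559 CPM in the WT libraries. Its edgeR log2 fold change was -3.01 ± 0.48 (approximate SE), and the WT libraries differed by a factor of 1.75. The gene lpa3 (GRMZM2G361593), the myo-inositol kinase whose loss gives a low phytic acid kernel, had 4.65 and 4.72 CPM in zmknl1 and 37.9 and 28.0 CPM in WT, a log2 fold change of -2.82 ± 0.47. Both zmknl1 libraries thus gave nearly the same value for lpa3.

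Of 7 genes named for inositol phosphate or phytic acid steps, 5 had a mean CPM of 5 or more. In 4 of these 5 both zmknl1 values lay below both WT values, against 20.9% of all genes at that level, and 3 of the 4 had met the fold that chose the members. DESeq2 called 3 of the 5 lower and none higher, and edgeR called 0 of the 5, with 4 at an unadjusted p under 0.05. The share of all genes that DESeq2 called lower is the 2.03% given above. The list was put together from names in the reference after the members were known and it contains them. Beside mips2 and lpa3, the left-out synthase gene INO1 (GRMZM2G155242) had 20.7 and 45.2 CPM in zmknl1 and 936 and 563 CPM in WT. The inositol phosphate kinase gene ITPK1 (GRMZM2G456626) had 3.77 and 4.64 CPM in zmknl1 and 10.9 and 10.7 CPM in WT, groups that did not overlap but stayed under the fold of the rule (DESeq2 adjusted p = 0.360). The transporter gene ZmMRP4 (GRMZM5G820122), which the phytic acid store of the kernel depends on, overlapped between the genotypes, at 139 and 82.5 CPM in zmknl1 and 174 and 69.3 CPM in WT (DESeq2 adjusted p = 0.978). The phytase genes phytase1 and phytase2, which break phytic acid down, stayed at or under 0.426 CPM in every library.

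**Figure D3:**
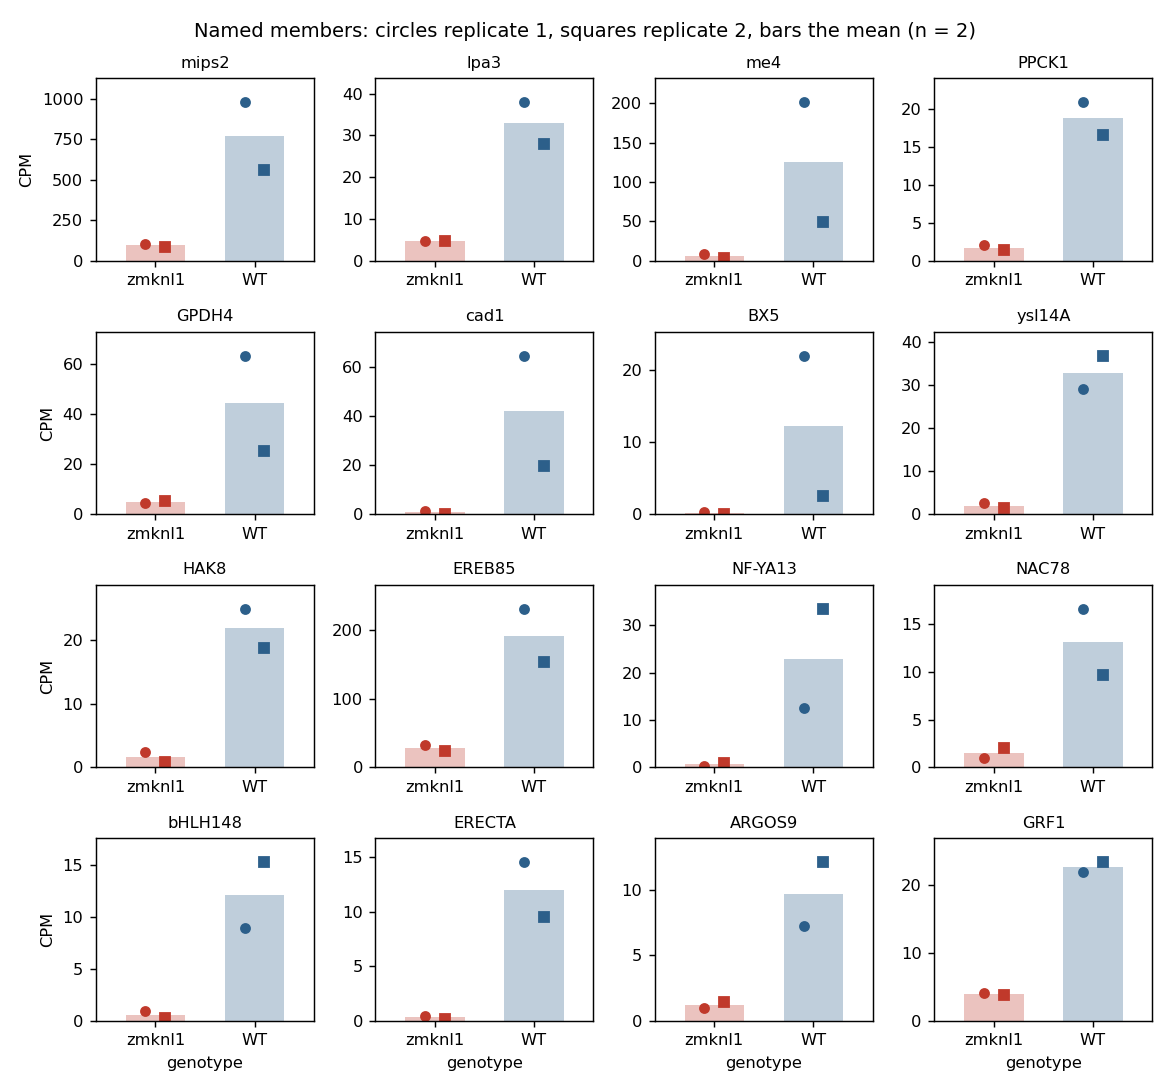
Each panel gives CPM of a named member on its own axis from 0, with zmknl1 in red and WT in blue, circles for replicate 1, squares for replicate 2 and bars for the mean of the 2 libraries. Relative to their level, the WT points lie closest together for GRF1 and PPCK1 and far apart for me4, cad1 and BX5.

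Further named members belong to carbon and secondary metabolism. The gene me4 (GRMZM2G118770), an NADP-dependent malic enzyme, which releases carbon dioxide from malate to give pyruvate, had 8.51 and 3.72 CPM in zmknl1 and 201 and 50.0 CPM in WT. Its log2 fold change was -4.37 ± 0.80, and it was -5.08 with zmknl1 replicate 1 left out. With WT replicate 1 or 2 left out it was -3.04 or -5.05. The other malic enzyme genes with a name, me2 (GRMZM2G122479) and me3 (GRMZM2G085019), were not called by DESeq2 (adjusted p = 0.634 and 0.891). They measured 744 and 697 CPM in zmknl1 against 959 and 1267 CPM in WT for me2, and 14.5 and 13.7 CPM against 7.02 and 12.8 CPM for me3.

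The gene PPCK1 (GRMZM2G178074) codes for a kinase that phosphorylates phosphoenolpyruvate carboxylase and makes it less sensitive to malate. It had 2.06 and 1.44 CPM in zmknl1 and 20.9 and 16.6 CPM in WT, a log2 fold change of -3.43 ± 0.58. Its relative PPCK2 (GRMZM2G135091) had 27.8 and 13.7 CPM in zmknl1 and 34.9 and 20.7 CPM in WT, where the genotypes overlapped (DESeq2 adjusted p = 0.910). The gene GPDH4 (GRMZM6G161711), a name the reference does not expand, had 4.61 and 5.20 CPM in zmknl1 and 63.5 and 25.3 CPM in WT. The genes GPDH1 (GRMZM2G155348) and GPDH3 (GRMZM2G173195) overlapped between the genotypes and were not called.

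The gene cad1 (GRMZM2G046070), named for cinnamyl alcohol dehydrogenase, an enzyme of lignin precursor synthesis, had 1.40 and 0 CPM in zmknl1 and 64.6 and 19.6 CPM in WT. Its log2 fold change of -5.92 ± 1.44 ran from -12.7 to -4.82 with 1 library left out. The value of -12.7, without zmknl1 replicate 1, rests on 0 counts in zmknl1. CAD2 (GRMZM5G844562) had 4.52 and 2.48 CPM in zmknl1 and 0.174 and 1.02 CPM in WT, with both zmknl1 values above both WT values (DESeq2 adjusted p = 0.358). The gene BX5 (GRMZM2G063756), a cytochrome P450 of the synthesis of benzoxazinoids, which are defence compounds of grasses, had 6 and 1 counts in zmknl1 and 504 and 29 counts in WT. In CPM these were 0.263 and 0.0400 in zmknl1 and 22.0 and 2.47 in WT, a WT1 value 8.89 times the WT2 value. The log2 fold change of BX5 was -6.32 ± 1.41, and it ran from -8.05 without zmknl1 replicate 1 to -3.99 without WT replicate 1. Of 9 benzoxazinoid genes found by name 5 were tested, and DESeq2 called BX5 lower and none higher, against 2.03% lower and 1.59% higher among all genes. Among the others bx6 (GRMZM6G617209) had 3.38 and 6.75 CPM in zmknl1 and 8.46 and 17.6 CPM in WT, bx8 (GRMZM2G085054), a glucosyltransferase, had 19.7 and 30.5 CPM in zmknl1 and 2.44 and 16.5 CPM in WT, and bx9 (GRMZM2G161335), its close relative, overlapped at 9.22 and 15.8 CPM in zmknl1 and 13.1 and 12.5 CPM in WT. BX14 (GRMZM2G127418) was uneven between the zmknl1 libraries, at 22.3 and 0.839 CPM, and was at 0 in both WT libraries. The untested BX3 (GRMZM2G167549) and BX4 (GRMZM2G172491) had at most 0.400 CPM in zmknl1, against 2.35 and 0.426 CPM for BX3 and 10.2 and 0.597 CPM for BX4 in WT.

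A pair of named members code for transporters. The gene ysl14A (GRMZM2G368398) belongs to the yellow stripe-like family, which carries metals bound to nicotianamine or phytosiderophores. It had 2.50 and 1.32 CPM in zmknl1 and 28.9 and 36.8 CPM in WT, a log2 fold change of -4.11 ± 0.56. The other 5 yellow stripe-like genes found by name had a mean CPM under 5, and YS3 and ysl17 among them were at 0 in every library. Of all 6 genes 4 were tested, and DESeq2 called ysl14A lower and ys1 (GRMZM2G156599) higher. Among all genes 2.03% were called lower and 1.59% higher. HAK8 (GRMZM2G173387), of the HAK family of potassium transporters, had 2.46 and 0.799 CPM in zmknl1 and 24.9 and 18.8 CPM in WT, a log2 fold change of -3.75 ± 0.71 that was -4.76 without zmknl1 replicate 1 and -3.16 without zmknl1 replicate 2.

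Of 22 HAK genes found by name 16 were tested. DESeq2 called 2 lower in zmknl1, HAK8 and HAK11 (GRMZM2G005040), and 3 higher, where 2.03% and 1.59% of all genes were called in these directions. HAK11 had 0.263 and 0.0400 CPM in zmknl1 and 7.02 and 4.52 CPM in WT and fell short of the mean CPM of the rule. HAK1 (GRMZM2G093826) was among the higher ones, at 28.0 and 22.7 CPM in zmknl1 and 1.18 and 3.92 CPM in WT. Members of this family thus lay on both sides.

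Named members include 4 genes of transcription factor families. EREB85 (GRMZM2G124524), of the AP2/EREBP family, had 32.6 and 23.4 CPM in zmknl1 and 230 and 153 CPM in WT, a log2 fold change of -2.78 ± 0.44. NF-YA13 (GRMZM5G857944), a subunit of the NF-Y complex that binds CCAAT boxes, had 0.395 and 0.959 CPM in zmknl1 and 12.5 and 33.5 CPM in WT, a log2 fold change of -5.07 ± 0.81 that was -4.19 without WT replicate 2 and -5.85 without zmknl1 replicate 2. NAC78 (GRMZM2G406204), of the plant-specific NAC family, had 0.966 and 2.00 CPM in zmknl1 and 16.6 and 9.63 CPM in WT. The basic helix-loop-helix gene bHLH148 (GRMZM2G080054) had 0.922 and 0.240 CPM in zmknl1 and 8.89 and 15.3 CPM in WT. In NF-YA13 and bHLH148 the higher WT library was replicate 2, while in EREB85 and NAC78 it was replicate 1.

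The relatives of these 4 regulators were mostly not called. Of 34 EREB IDs 16 were tested, and DESeq2 called 2 lower and none higher, against 2.03% and 1.59% of all genes. Beside EREB85 the one called was EREB20 (GRMZM2G174834) at 2.15 and 9.71 CPM in zmknl1 and 28.2 and 32.3 CPM in WT. Of 5 tested NF-YA IDs only NF-YA13 was called. At a mean CPM of 5 or more, 2 of 4 NF-YA IDs, NF-YA13 among them, lay lower in both zmknl1 libraries than in both WT libraries, against 20.9% of all genes at that level. By the same count it was 5 of 13 EREB IDs, 3 of 12 bHLH IDs and 1 of 7 NAC IDs. NAC78 was the only one of 13 tested NAC IDs called lower, and GRMZM2G018436, listed as NAC12, was called higher at 20.1 and 15.7 CPM in zmknl1 and 1.57 and 3.07 CPM in WT. Of 46 bHLH IDs 18 were tested, and 5 were called lower and none higher, against the same shares of all genes. They were bHLH148, the left-out bHLH7 (GRMZM2G042920), and bHLH173 (GRMZM5G882527), bHLH33 (GRMZM2G015666) and bHLH105 (GRMZM2G082586), which had a mean CPM under 5. Each of these counts contains the member that led to the family being looked up.

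**Figure D4:**
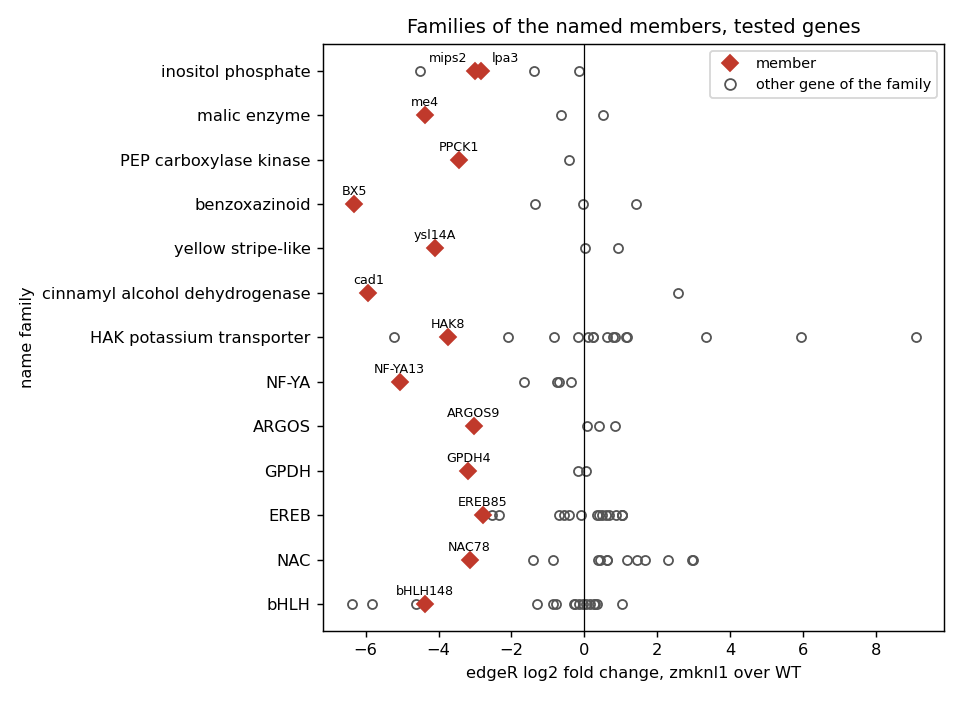
Points are edgeR log2 fold changes (zmknl1 over WT) of tested genes in the name families of the members, with members as red diamonds and other genes as open circles; genes with 0 counts in 1 genotype are not drawn. The HAK, bHLH and inositol phosphate rows hold other genes to the left of a member, and in the other rows drawn the member lies farthest to the left.

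The remaining named members are ERECTA, ARGOS9 and a gene listed as GRF1. ERECTA (GRMZM5G809695) is named for a receptor kinase that shapes organs and stomata in Arabidopsis. It had 0.483 and 0.200 CPM in zmknl1 and 14.5 and 9.46 CPM in WT, a log2 fold change of -5.13 ± 0.83. With 1 library left out this ran from -5.87 to -4.63. Its lower WT value was 19.6 times its higher zmknl1 value, the only ratio of at least 16 among the 16 named members. ARGOS9 (GRMZM2G082943), of a family that promotes organ growth and dampens ethylene responses, had 0.966 and 1.40 CPM in zmknl1 and 7.24 and 12.1 CPM in WT. The related genes ZAR3 (GRMZM2G137546) and ARGOS6 (GRMZM2G162250) overlapped between the genotypes. The gene listed as GRF1 (GRMZM2G178261), a name the reference also gives to other genes, had 4.13 and 3.88 CPM in zmknl1 and 21.9 and 23.4 CPM in WT. Its libraries lay close together in both genotypes.

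By gene name, 4 of 90 transcription factor genes at a mean CPM of 5 or more were members, where 0.705% of all genes at that level met the rule before the 7 were left out. The share was 2 of 18 for transporters, 1 of 27 for kinases and signalling, 1 of 30 for carbohydrate genes and 1 of 2 for cytochrome P450 genes. These classes go by the letters of the gene name only, while the 0.705% also covers genes without a name. The members lpa3 and ERECTA were therefore not counted under kinases and signalling, so the shares do not cover all members of a function. No member carried a name of the seed storage (3 genes), oil body and lipid (3), late embryogenesis and desiccation (11), defence (16), redox (14), cell wall (13), proteolysis (2) or chaperone (8) classes. A class without a member was not necessarily unchanged. Median edgeR log2 fold changes of these classes ran from -3.21 (oil body and lipid) and -2.51 (seed storage) to 1.68 (proteolysis). The seed storage and defence classes each held 1 of the left-out genes, the transcription factors 2 and the carbohydrate genes 1.

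Most members carried no gene name. The 52 unnamed IDs in the reference had a median of 1.12 and 1.32 CPM in the zmknl1 libraries and 21.4 and 14.3 CPM in the WT libraries, and 10 of them had a lower WT value at least 16 times the higher zmknl1 value. The 18 IDs without an entry in the reference had a median of 1.08 and 1.38 CPM in zmknl1 and 27.8 and 15.6 CPM in WT, and 8 of them reached that ratio.

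Among members with high counts, GRMZM2G000686 was even within genotypes, at 11.6 and 9.71 CPM in zmknl1 and 118 and 113 CPM in WT. GRMZM2G016958 had 19.9 and 23.3 CPM in zmknl1 and 152 and 127 CPM in WT. GRMZM2G150688 had 18.2 and 22.4 CPM in zmknl1 and 149 and 118 CPM in WT. The levels of GRMZM2G021885 were 12.4 and 11.5 CPM in zmknl1 and 111 and 54.6 CPM in WT. The zmknl1 libraries lay close together in these 4 genes, and the WT libraries were clearly apart only in GRMZM2G021885. GRMZM2G068259 was uneven in both genotypes, at 7.11 and 0.719 CPM in zmknl1 and 170 and 34.4 CPM in WT.

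The widest separations were found in genes near 0 in zmknl1. In 3 members no read was counted in either zmknl1 library. GRMZM2G086590 had 744 and 155 counts in WT replicates 1 and 2, GRMZM2G033544 had 864 and 128, and GRMZM2G114552 had 7319 and 131. A count of 0 allows up to 0.132 and 0.120 CPM in the zmknl1 libraries, the worth of 3 counts, by counting error only. All 3 were well counted in WT replicate 2 as well, at 13.2, 10.9 and 11.2 CPM.

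A further 2 members had a single count over both zmknl1 libraries. GRMZM2G079080 had 0 and 1 counts in zmknl1 and 291 and 95 in WT, a pooled WT to zmknl1 ratio of 532 with an exact 95% counting interval from 95.0 to 21078. GRMZM5G814771 had 1 and 0 counts in zmknl1 and 151 and 205 in WT, a ratio of 491 with an interval from 87.5 to 19444. Both intervals are wide, since each rests on 1 zmknl1 read.

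Other members near 0 were supported by a few more reads. GRMZM2G148167 had 4 and 0 counts in zmknl1 and 447 and 231 in WT, which came to nearly equal levels of 19.5 and 19.7 CPM in the WT libraries. GRMZM2G132077 had 30 and 14 counts in zmknl1 and 1939 and 967 in WT, or 1.32 and 0.560 CPM against 84.5 and 82.4 CPM. Its edgeR log2 fold change was -6.48 ± 0.59 (approximate SE, quasi-likelihood adjusted p = 0.0494). The log2 fold change ran from -7.21 to -5.99 with 1 library left out, and with no scaling factor the adjusted p was 0.0648 in the same test. GRMZM2G019866 had 1 and 10 counts in zmknl1 and 619 and 211 in WT, GRMZM2G065496 had 7 and 1 against 836 and 157, and GRMZM2G053466 had 6 and 1 against 293 and 129. In all, 26 members stayed under 1 CPM in both zmknl1 libraries.

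The WT libraries differed from each other in a direction that many members shared. WT replicate 1 was the higher of the WT libraries in 63 of 86 members (73.3%) and in 48.7% of all genes at a mean CPM of 5 or more. It was at least 2-fold higher in 23 members (26.7%, against 13.8% of all those genes), and WT replicate 2 was at least 2-fold higher in 3 members (3.49%, against 16.9%). The median log2 ratio of WT replicate 1 to WT replicate 2 was 0.46 over the members and -0.03 over all those genes. These values include the lower WT library, which the rule used. Between the zmknl1 libraries the members were split, with 44 higher in replicate 1, 39 higher in replicate 2 and 3 at 0 in both.

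**Figure D5:**
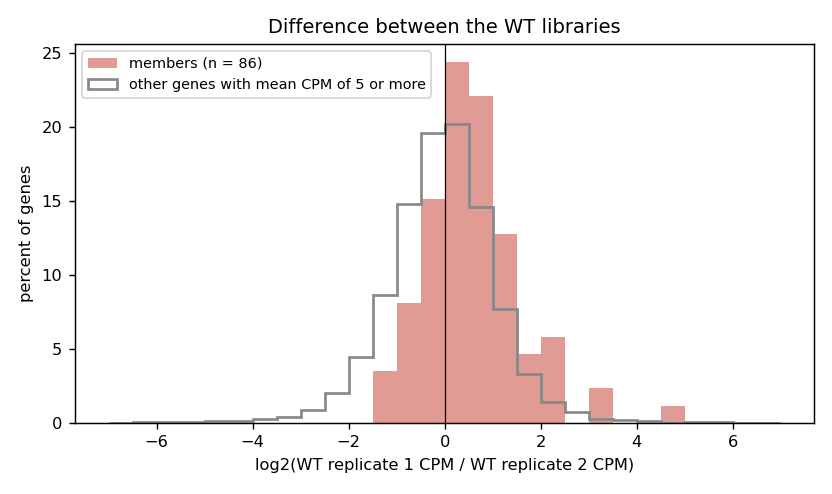
Histograms of the log2 ratio of WT replicate 1 to WT replicate 2, in percent of genes, for the 86 members (red) and for the other genes with a mean CPM of 5 or more (grey line). The members are shifted to the right, with a median of 0.46, and the other genes centre near 0.

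In 8 members WT replicate 1 was over 4 times WT replicate 2. They were GRMZM2G114552, GRMZM2G074946, BX5, GRMZM2G068259, GRMZM2G019317, GRMZM2G044989, GRMZM2G318662 and me4. GRMZM2G074946 had 0 and 0.240 CPM in zmknl1 and 24.5 and 2.22 CPM in WT. The opposite order, by at least 2-fold, was seen in NF-YA13, in GRMZM2G094353 with 0.307 and 0 CPM in zmknl1 and 7.37 and 18.1 CPM in WT, and in GRMZM5G814771. The levels of 20 members differed by no more than 1.25-fold between the WT libraries.

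Markers of kernel tissues also differed between these libraries. The 8 embryo markers found by name summed to 298 and 173 CPM in zmknl1 and 2941 and 713 CPM in WT, and ole1 (GRMZM2G337229) alone gave 2140 of the 2941 CPM. At a mean CPM of 5 or more, 4 of 6 embryo markers lay lower in both zmknl1 libraries, against 20.9% of all genes at that level, and 1 of the 4 is the left-out glb2. In the remaining markers at that level, glb1 and rab17 (GRMZM2G079440), the genotypes overlapped. The levels of rab17 were 25.5 and 0.0400 CPM in zmknl1 and 5.97 and 0.0852 CPM in WT, a log2 fold change of 2.03 ± 2.05. The oil body genes ole1 and ole17 and the globulin gene glb1 were 4.77, 4.26 and 6.94 times higher in WT replicate 1 than in WT replicate 2, and the globulin gene glb3 was at 117 and 168 CPM in these libraries. The embryo regulators wus1 and lec1 were at 0 in all 4 libraries. The 7 aleurone markers summed to 282 and 276 CPM in zmknl1 and 453 and 393 CPM in WT, with c1 at 0 in all libraries. At a mean CPM of 5 or more, 4 of 6 aleurone markers lay lower in both zmknl1 libraries, against the same 20.9% of all genes. Of the basal transfer layer, 7 markers summed to 161 and 125 CPM in zmknl1 and 17.9 and 39.4 CPM in WT, with BETL1 at 0 in every library. At a mean CPM of 5 or more, 0 of 3 of them lay lower in both zmknl1 libraries. DESeq2 called 3 of the 6 tested higher and 0 lower, against 1.59% and 2.03% of all genes. The 5 embryo-surrounding markers summed to 4.30 and 7.67 CPM in zmknl1 and 0.262 and 14.2 CPM in WT. Of the 3 pericarp markers p1 was at 0 in every library. The part of these tissues in the members' levels was not tested.

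In the gene order of the reference assembly, 68 members could be placed among protein-coding genes. A single pair lay within 10 genes of each other, and its members were direct neighbours. They were GRMZM2G016958, described above, and GRMZM2G172204, with 1.49 and 0 CPM in zmknl1 and 14.6 and 7.08 CPM in WT.

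For 2 members the reference entry also holds other counted IDs, so that a single gene there corresponds to several in the counts. GRMZM2G067555 had 60 and 55 counts in zmknl1 and 507 and 146 in WT, and GRMZM2G067587 in the same entry had 4 and 1 counts in zmknl1 and 54 and 6 in WT. GRMZM2G088028 had 28 and 9 counts in zmknl1 and 592 and 85 in WT. In its entry, GRMZM2G088018 had 33 and 8 counts in zmknl1 and 54 and 59 in WT, and GRMZM2G088064 overlapped between the genotypes with 18211 and 25679 counts in zmknl1 and 13344 and 18300 in WT.

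At the fold limit, the members GRMZM2G073197, GRMZM2G136895 and GRMZM2G326270 had a lower WT value 4.02, 4.08 and 4.10 times the higher zmknl1 value. Just outside it, GRMZM2G095302, GRMZM2G050329 and AC204711.3_FG002 had 3.98, 3.91 and 3.88. At the limit on level, the members GRMZM2G032132 and GRMZM2G456512 had a mean of 5.07 and 5.16 CPM, and GRMZM2G465771 and GRMZM2G067053, with ratios of 4.44 and 5.03, were left outside at 4.99 and 4.98 CPM.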

How the data were processed

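Per the submitters' processing notes, reads were trimmed with Trimmomatic 0.36, aligned with HISAT2 2.0.1 to B73 RefGen_v3 and counted per gene with HTSeq, and genes were called with DESeq2. The deposited tables hold raw counts per gene, and their 5 lines of reads assigned to no gene (35.77% to 47.79% of all reads) were left out. The strand setting of the counting is not given in the sources used here, so a gene and one that overlaps it on either strand may share reads, and near-identical copies have uncertain counts.

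CPM values use TMM factors over all genes (edgeR 4.0.16, R 4.3.3): 1.16 and 1.10 for zmknl1, 1.11 and 0.707 for WT. CPM is not divided by gene length, so levels are not compared between genes, and a sum over marker genes weighs abundant and long ones most. The test of zmknl1 against WT was edgeR's quasi-likelihood F-test after filterByExpr (19519 genes), two-sided, without covariates, at a Benjamini-Hochberg adjusted p of 0.05, with n = 2 per genotype. That test reports no SE. Each value after ± is the absolute log2 fold change divided by the square root of the F statistic. It is an approximation, least reliable for genes near 0 counts. DESeq2 1.42.0, other scalings and filters, a replicate block and fits on 3 libraries were alternatives. The fits were run on simulated counts made with the dispersions of these data, and the rule on planted genes far past its fold. Finding the planted genes was fixed in advance, so these runs check the code only. Replicate libraries differed by more than sampling noise (chi-square per degree of freedom 83.6 in zmknl1 and 403 in WT).

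Members, lists and rules were chosen with earlier results of these data known. Genes named are all members with a gene name, the 10 with the largest ratio, the 10 with the highest mean CPM, those next to the limits and neighbours; others were named after their values were seen. Names come from RefSeq's gene table of Zm-B73-REFERENCE-NAM-5.0, which holds 19060 of the 39625 IDs. It gives no product descriptions, so classes were matched by gene name. Marker genes with an ambiguous name were not used, apart from pbf1, of which both IDs were kept. Counting intervals and floors cover counting error only.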

Additional observations from a re-analysis of the deposited data

How the results depend on the processing

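Among named genes, 0 of 41 turned direction under any of 9 alternatives. Of the 41, 36 are members and 5 lie just outside the limits of the rule. In all of them the lower WT value was at least 3.88 times the higher zmknl1 value. This outcome was thus nearly fixed by the choice of genes, and nothing is read from it. The edgeR count of 4 called genes became 679 with DESeq2 (81 members), 715 without a low-count filter (84 members), 642 with the replicate block (84 members) and 0 with no scaling factor (2096 at an unadjusted p under 0.05). Leaving out a zmknl1 library gave 19 calls (replicate 1 left out) or 35 (replicate 2), and leaving out a WT library gave 166 (replicate 1) or 805 (replicate 2). The replicate numbers came only from the titles; deviations of same-numbered libraries from their group means correlated at 0.452 across genes.

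The 86 genes of the rule became 45 with no scaling factor, which put the median log2 fold change of all tested genes at 0.34 in place of 0.01, 239 at a mean CPM of 1, 46 at a mean CPM of 10, 39 at a fold of 8 and 262 by the ratio of group means. Applied to 3 libraries, the rule gave 200 or 193 genes when zmknl1 replicate 1 or 2 was left out, all 86 among them each time; a library left out of zmknl1 removes a value the rule has to clear, so members are kept by construction. It gave 105 (53 of the 86) or 317 (76 of the 86) when WT replicate 1 or 2 was left out. Leaving out a WT library keeps or raises the lower WT value, apart from any change in scaling, so members still meet the fold. It can lower their mean CPM, the other limit of the rule. Members cut by a stricter limit follow from the limit, and the other causes were not tested. Leaving out 1 library moved the fold of 26 of 36 named members by over 1.5 times. With 2 libraries per genotype, fitted log2 changes of genes near 0 rest on few reads.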
